A study of Mus musculus with 15 samples.

Results

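The piRNA cluster chr12_98369021_98458701 is a stretch of 89680 bases on mouse chromosome 12 (mm10), and its right-hand part overlaps the gene Kcnk10. It was 1 of 647 clusters that held the counts of the deposited tables, and it was found by position alone, as every counted interval on either strand that overlaps these coordinates. Such an interval, with its strand, is called a locus here, and a locus corresponds to 1 small RNA with a given 5′ and 3′ end. The cluster held 264362 distinct loci of the 8123114 counted over 15 libraries.

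The libraries came from small RNA of whole testis of male C57Bl/6 mice aged 8 weeks, with no mutant allele in any group. There were 3 libraries in each of 5 groups. Small RNA was treated with CMC, a carbodiimide that forms adducts with pseudouridine (Ψ) which stop reverse transcriptase, or was mock-treated without it. In the other experiment an antibody against Ψ was used for immunoprecipitation (Ψ-IP), and the input and the unbound flow-through were sequenced beside the Ψ-IP. Nothing in the sources used here says how many animals were used or whether they were pooled, so p-values measure only the spread between these libraries. Total counts ranged from 11570712 to 58365617 per library, and the cluster took 582958 to 3516268 of them. The labels name a library kit for the CMC samples and a kit of another maker for the IP samples. If these mean the whole of each experiment, kit and experiment cannot be told apart wherever both sets are named together. Only small RNA was counted, so marker genes of testis cell types could not be checked.

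piRNAs are small RNAs of the germline that are bound by PIWI proteins and guide them to transposons and other transcripts. In the adult testis most are cut from long single-stranded precursors of pachytene spermatocytes and spermatids, and many of the clusters that encode them are transcribed in both directions from a shared promoter. The longer piRNAs of these cells are mainly bound by the PIWI protein MIWI and the shorter ones by MILI, and most begin with uridine. Ψ is an isomer of uridine, so the number of uridines sets how many positions of a small RNA could carry it.

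The sequences of 4 loci show what the assays could act on. All 4 lie on the plus strand inside 5330409N07Rik, an annotated transcript of the minus strand within an intron of Kcnk10, and were read as its reverse complement from GENCODE M21 (GRCm38). They are given 5′ to 3′ with every uridine in capitals. The first and the second share the most abundant 5′ end of the plus strand, the next begins 5 nt further in, and the last was the locus with the largest decrease after CMC.
chr12:98447235-98447263: gaccaUUUcacUcagacUgUaaccaUgac
chr12:98447235-98447265: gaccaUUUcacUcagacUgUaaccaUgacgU
chr12:98447240-98447268: UUUcacUcagacUgUaaccaUgacgUUUc
chr12:98447498-98447526: UUUgUUUgUUUUUgUUgacUUUggaUgUg
The most abundant plus-strand locus therefore began with g and contained 7 uridines in 29 nt. The last contained 18 in the same length. The minus-strand loci named in what follows lie outside these exons, and no sequence was available here for them.

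The cluster was divided between its strands. Up to position 98420077, 51.06 kb from its start, 15553081 counts lay on the minus strand and 7092 on the plus strand. Beyond that position 6124994 lay on the plus strand and 25832 on the minus strand, so that 99.85% of the counts were on the main strand of their side. This share ran from 99.73% to 99.89% over the libraries. The position was chosen to give the largest such share and is a description. Loci on both sides pointed away from it, to the left on the minus strand and to the right on the plus strand. Loci whose 5′ ends had at least 1000 counts over all libraries reached 98420502 on the minus strand and began at 98420222 on the plus strand, so that both sides overlapped by 281 bases at this depth.

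**Figure D1:**
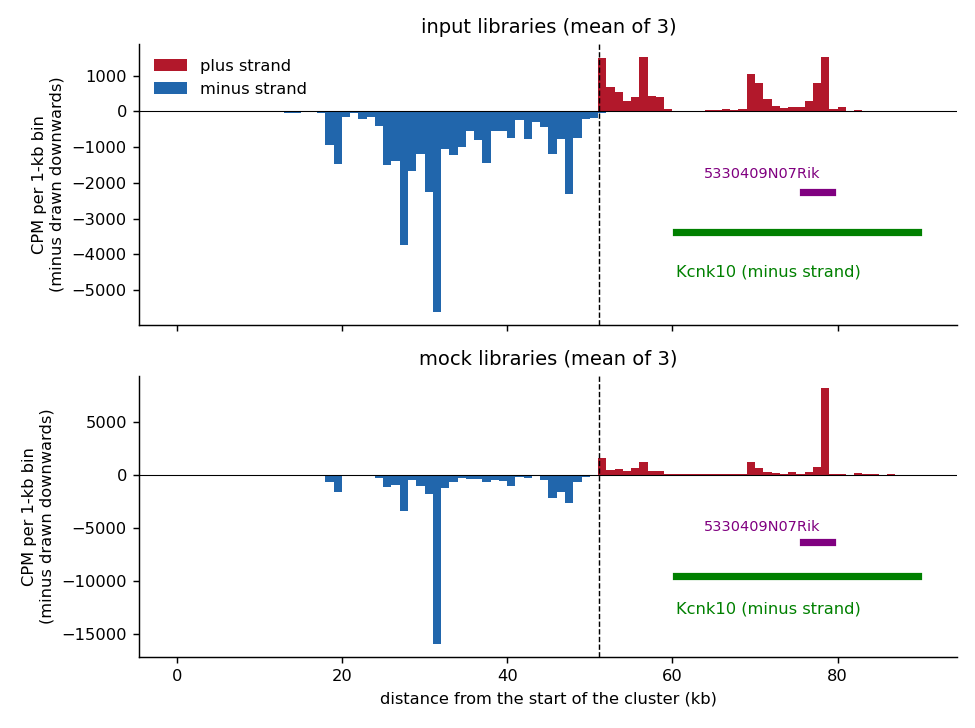
Counts scaled to the library total (CPM) by 1-kb bin along the cluster, as the mean of 3 input (top) and 3 mock (bottom) libraries, with the plus strand drawn upwards, the minus strand downwards and the strand boundary dashed. Minus-strand counts lie to the left of 51.06 kb and plus-strand counts to the right, and the mock libraries have a single tall bin on each strand.

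Kcnk10, a potassium channel gene of the minus strand, begins its overlap at 98429437. Plus-strand loci inside it, antisense to its transcript, took 12.3% ± 0.330 of the cluster counts in input (SD, n = 3) and 20.2% ± 0.404 in mock. Sense loci took 0.0221% ± 0.00169 and 0.0119% ± 0.000637. Most of the antisense counts were intronic, and loci inside Kcnk10 exons took 0.425% ± 0.000592 in input and 0.315% ± 0.0116 in mock. Loci antisense to 5330409N07Rik alone took 5.57% ± 0.364 in input and 15.0% ± 0.483 in mock. The Kcnk10 overlap was thus counted almost wholly antisense to the gene.

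Most cluster counts were outside repeats, 83.7% in input and 73.1% in mock. ORR1F-int and ORR1F, both LTR elements of the ERVL-MaLR family, took 7.90% and 4.04% on the minus strand in input and 6.16% and 0.434% in mock. MER94B, a hAT-Blackjack DNA transposon on the minus strand, took 1.77% in input, 0.661% in Ψ-IP, 0.560% in flow-through, 18.5% in mock and 18.3% in CMC. The locus label names a repeat only where the whole interval lies in it. The 29-nt locus chr12:98400625-98400653 carried the MER94B label, whereas the locus that is longer by 1 base did not.

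The level of the cluster was close within each group. It held 4.79%, 4.76% and 4.81% of all counts in the input libraries, 5.02%, 5.04% and 5.06% in Ψ-IP, and 3.95%, 4.18% and 4.22% in flow-through. In mock libraries it held 6.09%, 6.03% and 6.09%, and in CMC libraries 6.20%, 5.84% and 6.03%. The Ψ-IP libraries lay above both the input and the flow-through libraries with no overlap, whereas the CMC libraries lay on both sides of the mock libraries. It ranked 7 of 647 clusters by mean share in input and 2 of 647 in mock. The plus strand held 24.5% ± 0.555 of the cluster counts in input, 24.1% ± 0.356 in Ψ-IP, 28.4% ± 0.483 in flow-through, 29.3% ± 0.289 in mock and 30.3% ± 0.557 in CMC.

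**Figure D2:**
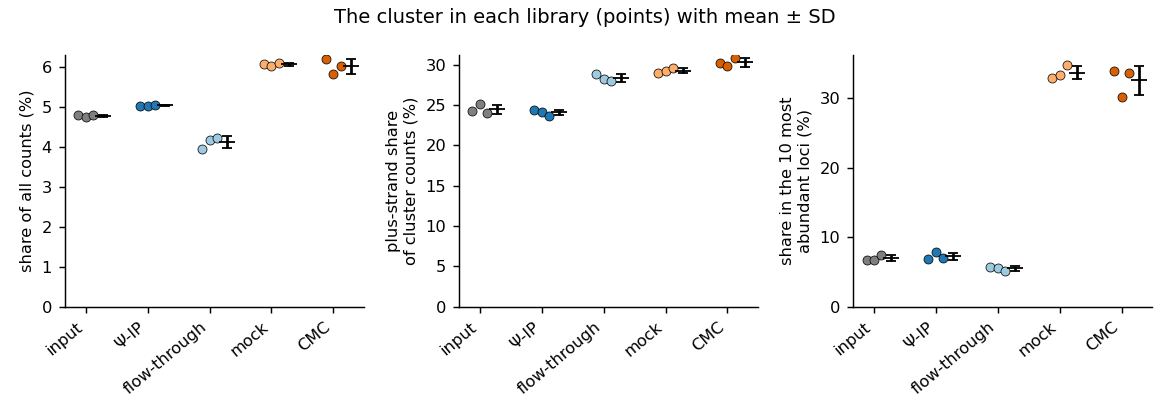
Share of all counts in the cluster, plus-strand share and share in the 10 most abundant loci, in percent, for each library (points) with the mean ± SD of its group beside them (n = 3). Flow-through is lowest in the first panel, and the 10 most abundant loci take 30.2% to 34.8% in mock and CMC libraries against 5.10% to 7.83% in the others.

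Single 5′ ends made up much of the difference between the experiments. The 5′ end at 98400653 on the minus strand averaged 5792 CPM over all libraries (CPM, the count scaled to the library total), and that at 98447235 on the plus strand averaged 2918 CPM. The 5′ ends needed to reach 50% of the cluster counts numbered 311 to 427 in the input, Ψ-IP and flow-through libraries and 26 to 42 in the mock and CMC libraries. Without these 2 5′ ends the cluster held 4.53% to 4.55% of all counts in input and 4.07% to 4.18% in mock. The order thus turned, as with them the mock libraries lay above the input libraries. The 29-nt locus chr12:98400625-98400653, the most abundant of all, had 10430, 10390 and 10780 CPM in mock libraries and 10450, 8792 and 9914 CPM in CMC libraries. In input it had 437.5, 292.0 and 447.6 CPM, in Ψ-IP 157.6, 77.4 and 140.1 CPM, and in flow-through 70.9, 115.0 and 145.6 CPM. The input libraries were above the Ψ-IP and flow-through libraries without overlap, and the Ψ-IP and flow-through libraries overlapped.

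The 3′ ends at this position also differed between the experiments. Of the counts that began at 98400653, 78.9% ± 0.547 were 29 nt long in mock and 79.2% ± 0.465 in CMC. In input 48.1% ± 2.39 were 30 nt and 20.6% ± 2.21 were 29 nt, with 47.3% ± 2.48 and 15.9% ± 4.39 in Ψ-IP. Loci of 32 nt were a separate peak in every group, from 6.25% in input to 12.9% in mock. At the plus-strand 5′ end, 29 nt was the most frequent length in input (34.9% ± 3.63) and in mock (46.3% ± 0.344), with 31 nt at 15.9% ± 3.08 and 29.5% ± 0.608.

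Other abundant loci had another order over the groups. The 29-nt locus chr12:98396934-98396962 on the minus strand, in ORR1F, had 392.8, 528.2 and 447.8 CPM in input, 807.8, 946.4 and 721.2 CPM in Ψ-IP, and 287.2, 259.3 and 248.2 CPM in flow-through. In mock libraries it had only 3.87 to 5.03 CPM and in CMC libraries 4.14 to 5.14 CPM. It was thus the most abundant 29-nt locus of Ψ-IP among the 10 abundant loci named here and the least abundant of them in mock. The 29-nt locus chr12:98414886-98414914 had 86.5, 122.2 and 107.1 CPM in input, 299.3, 270.3 and 369.5 CPM in Ψ-IP, and 49.6, 116.3 and 87.1 CPM in flow-through. In mock libraries it had 720.2, 704.9 and 716.1 CPM and in CMC libraries 525.6, 442.7 and 418.6 CPM, so that both contrasts were without overlap.

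The first comparison asked whether RNA of the cluster was recovered by the antibody against Ψ. Relative to input, the cluster was 1.06 times as abundant in Ψ-IP (log2 fold change 0.08 ± 0.02 SE, edgeR adjusted p = 0.00125). It was called at an adjusted p under 0.01, as were 19.7% of the clusters tested in either direction. The call was lost without input replicate 1 (adjusted p = 0.0122) and without input replicate 3 (adjusted p = 0.0108), both by edgeR. Relative to flow-through it was 1.21 times as abundant (log2 fold change 0.27 ± 0.02, edgeR adjusted p = 1.66e-06), where 40.0% of clusters were called. Ψ-IP libraries were higher in 9 of 9 library pairs of both comparisons.

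The minus strand rose in both comparisons. Against input it rose by 0.10 ± 0.02 on the log2 scale (edgeR adjusted p = 0.00107) and against flow-through by 0.39 ± 0.03 (edgeR adjusted p = 9.11e-08). The plus strand had log2 ratios of 0.07 ± 0.02 (edgeR adjusted p = 0.0103) and 0.07 ± 0.02 (edgeR adjusted p = 0.031) and was not called in either. Against input it was called by DESeq2, with DESeq2's size factors in edgeR, with no minimum count, with the replicate block and without input replicate 2 (adjusted p = 0.00479, 0.00276, 0.00133, 0.00236 and 0.00803), and against flow-through with DESeq2's size factors and with no minimum count. Of all strands of clusters tested, 26.2% and 47.0% were called. The plus-strand share of the cluster was lower in Ψ-IP than in flow-through by 4.28 percentage points, without overlap (exact permutation p = 0.1, adjusted 0.131), which is the smallest p that 3 against 3 libraries allow. Between Ψ-IP and input it was lower by 0.397 percentage points, with overlap (exact permutation p = 0.5). Without the 2 most abundant 5′ ends it averaged 23.6% in Ψ-IP and 24.6% in input, without overlap (exact permutation p = 0.1).

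Along the cluster the rise was uneven. Of 18 windows of 5 kb, 5 were higher in Ψ-IP than in input and 0 were lower, against 13.7% and 13.0% of all windows of clusters. The largest rise was in window 10 (chr12:98414022-98419021, minus strand), where TMM-normalized levels averaged 5208 ± 36.1 CPM in input and 5936 ± 234 CPM in Ψ-IP (log2 fold change 0.19 ± 0.03, edgeR adjusted p = 0.000113). Window 6 (chr12:98394022-98399021), which held 19.9% ± 0.288 of the cluster counts in input, also rose (0.19 ± 0.03, edgeR adjusted p = 4.28e-05). Window 7 (chr12:98399022-98404021) held the most counts, 23.4% ± 0.719, and had a log2 ratio of 0.01 ± 0.03 (edgeR adjusted p = 0.869). It holds the 5′ end 98400653, which had 1897 ± 289 CPM in input and 774 ± 82.1 CPM in Ψ-IP by library totals. The 1-kb minus-strand bin with that end went from 5631 to 4697 CPM. The other 1-kb bins of the window went from 2249, 1063, 1222 and 1006 to 2815, 1310, 1255 and 999.6 CPM. The window was not tested without that end. Window 16 (chr12:98444022-98449021), which holds 5330409N07Rik, had 5.86% ± 0.371 in input and 15.2% ± 0.482 in mock and was not called in any comparison.

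Against flow-through 8 of 18 windows were higher and 2 lower, against 23.5% and 23.7% of all windows. Window 7 had the largest rise, from 7535 ± 468 to 11120 ± 162 CPM (log2 fold change 0.56 ± 0.04, edgeR adjusted p = 1.06e-07). Window 18, which begins at chr12:98454022 and reaches the right-hand edge, fell by 1.10 on the log2 scale (SE 0.14, edgeR adjusted p = 1.52e-05), from 38.6 ± 7.10 to 17.9 ± 3.48 CPM. Window 11 (chr12:98419022-98424021), which holds the strand boundary, was 0.914 times as abundant (edgeR adjusted p = 0.00709). Window 11 lost its call without Ψ-IP replicate 2 or 3 and likewise without flow-through replicate 2 or 3, which left 1 lower window.

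**Figure D3:**
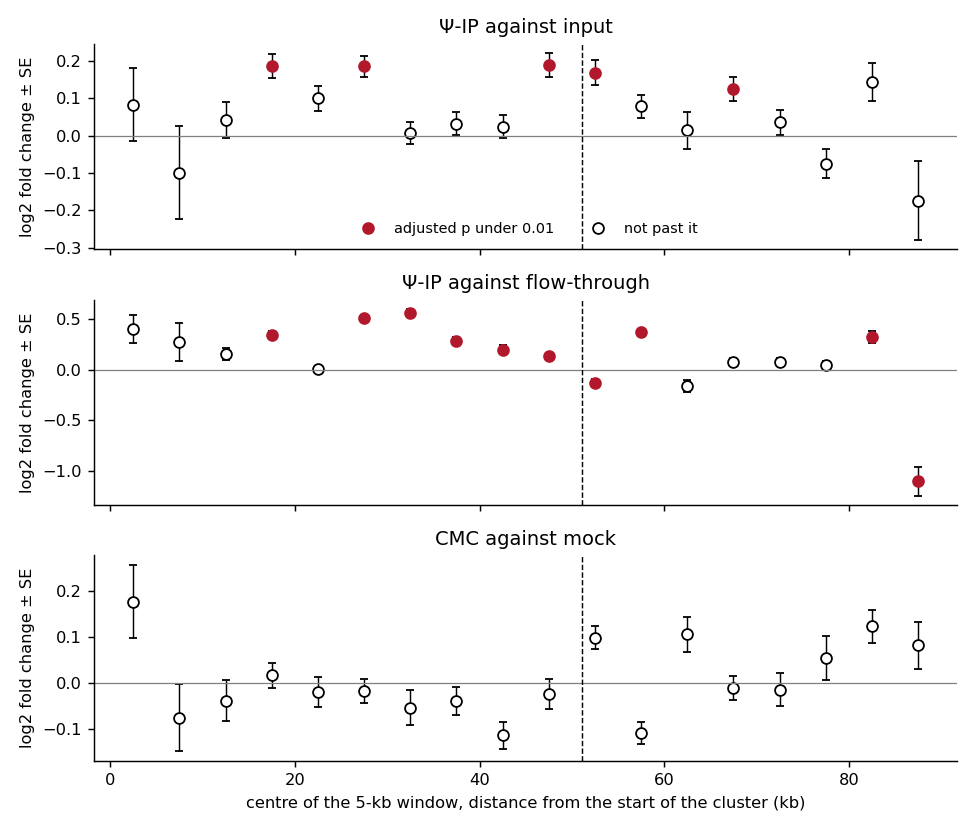
log2 fold change ± SE of each 5-kb window along the cluster for the 3 comparisons, by edgeR on 3 libraries per group, with filled points past an adjusted p of 0.01 and the strand boundary dashed. Rises in Ψ-IP lie on both sides of the boundary. Windows called in either direction numbered 5 against input, 10 against flow-through and 0 for CMC.

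Loci of 29 to 33 nt rose in Ψ-IP in both comparisons, and loci at both ends of the length range fell. Loci of 29, 30, 31, 32 and 33 nt were the 5 of 29 length classes of the cluster that were higher in Ψ-IP than in input, and 14 were lower, against 14.8% and 17.8% of all length classes of clusters. Levels of 30-nt loci rose from 15090 ± 171 to 16750 ± 341 CPM (log2 fold change 0.15 ± 0.03, edgeR adjusted p = 0.000468). With library totals in place of TMM they were no longer called (edgeR adjusted p = 0.0208). Those of 33 nt had the largest rise (0.42 ± 0.04, edgeR adjusted p = 2.06e-06), and those of 16 nt fell by 2.10 (SE 0.21, edgeR adjusted p = 1.69e-06), from 48.1 ± 13.3 to 11.6 ± 3.83 CPM. All 8 classes of 16 to 23 nt were lower, as were 6 classes longer than 33 nt (35, 36 and 38 to 41 nt), and none of the classes of 24 to 28 nt was called. Loci of 34 nt or more took 1.36% ± 0.0874 of the cluster counts in input, 1.00% ± 0.0224 in Ψ-IP and 1.78% ± 0.260 in flow-through. In all mock and CMC libraries they took 0%, so length shares of those libraries cover 33 nt or less. Against flow-through 8 classes were higher, those of 26 to 33 nt, and 13 were lower, against 23.7% and 24.7% of all length classes. The largest rise was again at 33 nt (0.65 ± 0.06, edgeR adjusted p = 4.73e-10) and the largest fall at 17 nt, by 1.37 (SE 0.18, edgeR adjusted p = 3.69e-07). The 13 lower classes were 17 to 20 nt, 35, 36 and 38 to 44 nt.

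The same shift was seen in the shares. Loci of 29 to 31 nt took 71.8%, 72.5% and 71.7% of the cluster counts in input, 73.5%, 73.7% and 74.4% in Ψ-IP and 71.6%, 72.1% and 72.2% in flow-through. Ψ-IP lay above both without overlap. Loci of 25 to 27 nt took 9.80% ± 0.203 in input, 8.58% ± 0.433 in Ψ-IP and 9.38% ± 0.298 in flow-through, again without overlap between Ψ-IP and either group. Each of these 4 differences had an exact permutation p of 0.1 (adjusted 0.131 over 21 share tests). The direction was the same in other clusters of high abundance. Loci of 29 to 31 nt took 68.1% to 69.2% in input and 70.5% to 71.8% in Ψ-IP in chr9_67687024_67773986. In chr17_27269742_27371971 they took 45.8% to 46.7% and 47.8% to 49.9%. Loci of 25 to 27 nt were lower in Ψ-IP than in input in both, without overlap. With the total of each library as its only scaling, the median log2 fold change of all length classes moved from -0.01 to -0.17 against flow-through.

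**Figure D4:**
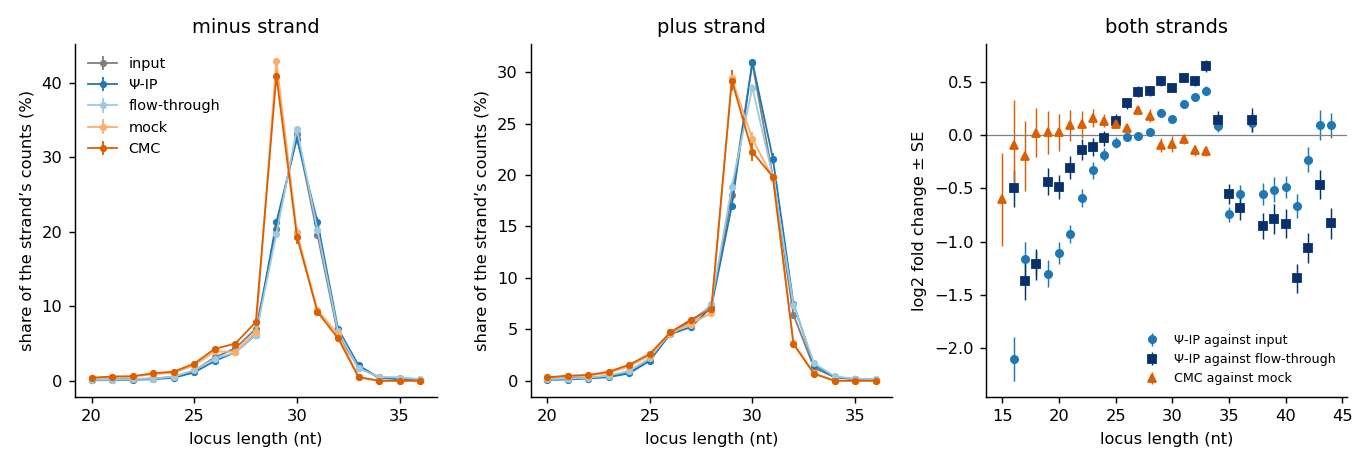
Share of each strand's counts by locus length in nt as mean ± SD of 3 libraries per group (left and middle), and log2 fold change ± SE by length class of the cluster for the 3 comparisons (right, edgeR). The most frequent length is 30 nt in input, Ψ-IP and flow-through and 29 nt in mock and CMC on both strands, and rises in Ψ-IP are called at 29 to 33 nt against input and at 26 to 33 nt against flow-through.

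Single loci went both ways in Ψ-IP. More than 20 counts over 9 libraries were found at 30289 loci of the cluster, 11.5% of its loci with 91.3% of its counts in this set. Of these, 1648 were higher and 3506 lower in Ψ-IP than in input, which is 5.44% and 11.6%, against 4.89% and 11.2% of all loci tested. Against flow-through 3610 were higher and 881 lower, which is 11.9% and 2.91%, against 9.25% and 3.61% of all loci. The split of calls depended on the scaling. With library totals in place of TMM, 2312 were higher and 2861 lower than in input, and 2993 higher and 1421 lower than in flow-through. The median log2 fold change of all loci then moved from -0.15 to 0.03 and from -0.03 to -0.27. Without input replicate 1 the counts against input were 890 and 1917, and without input replicate 3 they were 854 and 2241. The number lower than flow-through was 581 without Ψ-IP replicate 1 and 523 without Ψ-IP replicate 2.

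Among called loci averaging 100 counts or more, the largest rise over flow-through was at chr12:98400506-98400534 on the minus strand (29 nt). It had 218.8, 280.4 and 187.5 CPM in Ψ-IP and 1.40, 2.70 and 4.34 CPM in flow-through (log2 fold change 6.61 ± 0.31, edgeR adjusted p = 5.95e-94). Input, with 157.6, 122.7 and 164.6 CPM, was near Ψ-IP (log2 fold change 0.43 ± 0.20, edgeR adjusted p = 0.0972). The next rises, chr12:98400506-98400535 (6.53 ± 0.33) and chr12:98400507-98400534 (6.00 ± 0.41), share an end with it. Against input the largest rises were at chr12:98396820-98396850, chr12:98396821-98396850 and chr12:98402595-98402623, with log2 fold changes of 2.18, 2.08 and 2.03. The 30-nt locus chr12:98396821-98396850 had 17.2, 16.9 and 18.8 CPM in Ψ-IP, 3.27, 3.2 and 4.51 CPM in input, and 0 counts in all mock and CMC libraries.

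The largest falls against input were at chr12:98400486-98400514, chr12:98388643-98388673 and chr12:98416548-98416577, by 4.38, 4.33 and 4.19 on the log2 scale. The last of these had 39.8, 28.4 and 36.5 CPM in input, 2.74, 2.16 and 1.80 CPM in Ψ-IP and 2.61, 6.53 and 8.74 CPM in flow-through. It was low in both fractions of the immunoprecipitation. The largest falls against flow-through were at chr12:98416952-98416982, chr12:98417623-98417652 and chr12:98417624-98417652, with log2 fold changes of -3.26, -2.98 and -2.89. Of the most abundant minus-strand loci, chr12:98414886-98414914 rose by 1.39 ± 0.20 over input (edgeR adjusted p = 2.60e-10) and 2.14 ± 0.24 over flow-through (edgeR adjusted p = 1.43e-16). The locus chr12:98400625-98400653 fell by 1.85 against input (SE 0.20, edgeR adjusted p = 8.69e-18) and had a log2 ratio of 0.42 ± 0.24 against flow-through (edgeR adjusted p = 0.223). None of the 3 most abundant plus-strand loci, which share the 5′ end at 98447235, was called against input or flow-through. The next in abundance, chr12:98447240-98447268, whose sequence begins with uridine, had 25.2, 28.4 and 22.1 CPM in input and 8.14, 8.56 and 5.89 CPM in Ψ-IP. It fell by 1.95 against input (SE 0.24, edgeR adjusted p = 4.29e-14). Flow-through libraries had 8.61, 10.47 and 13.8 CPM, and it was not called against them (-0.31 ± 0.30, edgeR adjusted p = 0.532).

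The other comparison set CMC-treated against mock-treated RNA, where Ψ is read as a loss of counts. The cluster as a whole had a log2 ratio of 0.00 ± 0.02 (edgeR adjusted p = 0.979), and 2.17% of clusters were called in either direction. Neither strand was called (0.04 ± 0.03 for the plus strand, edgeR adjusted p = 0.485, and -0.03 ± 0.03 for the minus strand, edgeR adjusted p = 0.489), and in this fit edgeR called no strand of any cluster (0%, with 166 of 768 strands at an unadjusted p under 0.05). Over all clusters DESeq2 called 11 strands higher and 13 lower, edgeR with the replicate block 16 and 16, and edgeR on loci of 24 to 33 nt 27 and 22, with 0 of this cluster in each. No window of the cluster was called by edgeR, against 4.67% of all windows, and DESeq2 called 1 higher and 2 lower, against 7.99% of all windows. With replicate number as a block, windows 11 and 17 were higher (0.10 ± 0.02 and 0.12 ± 0.03) and windows 9 and 12 lower (-0.11 ± 0.02 in each), against 13.4% of all windows called in that fit. No length class of any cluster was called by edgeR without the block (0%, with 491 of 3113 at an unadjusted p under 0.05), whereas DESeq2 called 1 of this cluster and 1.35% of all length classes. With the block, 27-nt and 28-nt loci of the cluster were higher (0.24 ± 0.02 and 0.18 ± 0.01, edgeR adjusted p = 0.00626 for each), against 2.47% of all length classes called.

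Shares by length moved a little. Loci of 29 to 31 nt took 73.2%, 72.7% and 71.7% of the cluster counts in mock and 71.5%, 70.0% and 68.7% in CMC. Loci of 25 to 27 nt took 10.6%, 10.6% and 10.9% in mock and 11.6%, 12.3% and 12.4% in CMC. Neither share overlapped between the groups (exact permutation p = 0.1, adjusted 0.131, for both).

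At single loci CMC had calls in both directions. More than 20 counts over 6 libraries were found at 23010 loci of the cluster, with 96.7% of its counts in this set. Of these, 306 were higher and 219 lower after CMC, which is 1.33% and 0.952%, against 1.07% and 0.655% of all loci tested. The number lower was 329 with replicate number as a block, against 1.02% of all loci in that fit. It was 104 without CMC replicate 2, 137 without mock replicate 1 and 86 without mock replicate 2. The number higher was 175 without mock replicate 2. Of 8799 tested loci of 24 to 28 nt 204 were higher (2.32%) and 44 lower (0.50%), against 1.75% and 0.375% of all loci of these lengths. Of 3873 loci of 30 nt 9 were higher (0.232%) and 64 lower (1.65%), against 0.304% and 1.16% of all 30-nt loci.

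Loci higher after CMC mostly began inside a more abundant locus with the same 3′ end. Of the 306, 210 (68.6%) shared the 3′ end of a locus that began 1 to 10 nt further upstream and was at least 10 times as abundant over the 6 libraries. Of the 219 lower loci 0 did so, and of all 23010 loci tested 11.7% did. Among the 210, 71 began 1 nt further in, 71 began 2 nt and 33 began 3 nt further in. The abundance criterion used the same libraries as the contrast, so these counts are a description.

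Among loci averaging 100 counts or more, the 3 largest rises after CMC were at the most abundant 5′ end of the cluster. The locus chr12:98400625-98400651 lacks the first 2 bases of the most abundant locus and has its 3′ end. It had 1.46, 1.83 and 1.42 CPM in mock and 211.3, 234.3 and 330.6 CPM in CMC libraries (log2 fold change 7.27 ± 0.17, edgeR adjusted p = 3.51e-31). The other 2 largest rises, chr12:98400624-98400651 and chr12:98400626-98400651, begin at the same base (6.79 ± 0.28 and 6.42 ± 0.24). Counts that began 1 nt inside the most abundant 5′ end were 0.259%, 0.282% and 0.275% of those at that end in mock and 3.03%, 3.77% and 4.19% in CMC. For starts 2 nt inside it the values were 0.0688%, 0.0797% and 0.0671% in mock and 2.08%, 2.73% and 3.37% in CMC. The full-length locus itself had a log2 ratio of -0.18 ± 0.10 (edgeR adjusted p = 0.409). At the 5′ end 98414914 starts 1 nt inside were 0.0617%, 0.0366% and 0.0428% of those at the end in mock and 0.417%, 0.406% and 0.363% in CMC. Both minus-strand positions thus had more of these shorter starts in every CMC library. At the plus-strand 5′ end 98447235, starts 1 nt inside had 106.0 ± 3.89 CPM in mock and 114.6 ± 9.28 CPM in CMC, and starts 2 nt inside had 8.51 ± 0.395 and 9.97 ± 0.865 CPM. Starts 6, 7, 8 and 9 nt inside it, which lie 1 to 4 nt inside the abundant 5′ end 98447240, were higher in every CMC library than in any mock library. Their means were 19.9, 6.41, 2.00 and 1.35 CPM in mock and 34.2, 15.2, 5.84 and 8.19 CPM in CMC. The locus chr12:98447244-98447268, which lacks the first 4 bases of the locus chr12:98447240-98447268, had a log2 ratio of 6.05 ± 0.31 (edgeR adjusted p = 4.08e-19). To which of these 5′ ends the starts 6 to 9 nt inside 98447235 belong was not tested. At 98447235 the starts 1 nt inside were 1.70% to 1.74% of those at the end in mock and 1.64% to 1.80% in CMC, with overlap. Starts 2 nt inside it had 8.22 to 8.96 CPM in mock and 9.28 to 10.9 CPM in CMC, without overlap. As a share of the end they overlapped, at 0.127% to 0.150% and 0.137% to 0.159%. Shorter starts elsewhere on the plus strand also rose. An example is chr12:98451844-98451869, with a log2 ratio of 6.00 ± 0.65 (edgeR adjusted p = 7.31e-09) at an average of 11.7 counts.

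**Figure D5:**
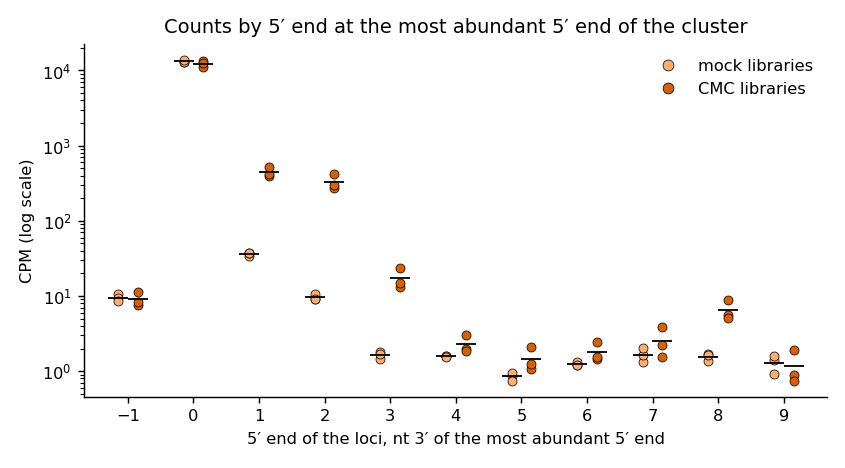
CPM (log scale) of all loci by the position of their 5′ end relative to the most abundant 5′ end of the cluster (0, minus strand), for 3 mock and 3 CMC libraries (points) with the group mean as a bar. CMC libraries lie above mock libraries at 1 to 6 and at 8 nt, with means of 447.5 against 36.3 CPM at 1 nt and 333.4 against 9.59 CPM at 2 nt.

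The 3 largest decreases after CMC were on the plus strand. The locus chr12:98447498-98447526, whose sequence is printed above with 18 uridines, had 6.43, 6.13 and 6.57 CPM in mock and 2.15, 2.28 and 1.46 CPM in CMC libraries (log2 fold change -1.75 ± 0.17, edgeR adjusted p = 3.21e-10). The locus chr12:98447496-98447526 has the same 3′ end, contains 19 uridines in 31 nt and fell by 1.59 (SE 0.19). The other was chr12:98425055-98425084, which fell by 1.71. Of the abundant loci only chr12:98414886-98414914 was called, and it fell by 0.69 (SE 0.11, edgeR adjusted p = 2.72e-05). It also rose in Ψ-IP against both input and flow-through.

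Sequence was available for 22904 loci inside exons of 5330409N07Rik or Kcnk10, 8.66% of the loci of the cluster, with most of their counts in 5330409N07Rik. Among those tested for CMC the median uridine content was 31% over 1651 loci, 59.6% over the 36 lower loci and 26.9% over the 31 higher loci. For Ψ-IP against flow-through it was 32.1% over 1982 loci, 40% over the 214 higher loci and 20% over the 55 lower loci. For Ψ-IP against input it was 37.5% over the 78 higher and 32.3% over the 243 lower loci. Lower loci after CMC and higher loci in Ψ-IP thus had more uridines than the tested loci with sequence as a whole. The 36 loci began at only 14 positions, the 214 at 133 and the 55 at 34, so they overlap and are not independent, and no test was made.

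Counted by reads, the first base was uridine in 74.3% ± 2.77 of these counts in input and 31.2% ± 0.777 in mock. Without the plus-strand 5′ end 98447235, whose loci begin with g, it was 91.4% ± 0.171 and 91.8% ± 0.0832. The mean uridine content of these remaining counts was 33.7% ± 0.115 in input, 34.7% ± 0.570 in Ψ-IP and 28.9% ± 0.971 in flow-through, without overlap of Ψ-IP with either group (exact permutation p = 0.1). In mock it was 32.7% ± 0.138 and in CMC 31.3% ± 0.145, again without overlap (exact permutation p = 0.1).

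Opposite 5′ ends were rare, as the strands hardly overlap. Of pairs of opposite-strand 5′ ends that overlapped by 1 to 20 nt, each counted by its smaller count, those with an overlap of 10 nt made up 7.17% to 7.82% in input, 9.13% to 9.86% in Ψ-IP, 10.6% to 11.6% in flow-through, 9.11% to 9.46% in mock and 8.86% to 9.03% in CMC, where an even spread gives 5%. Ψ-IP was above input and below flow-through without overlap, and CMC below mock (exact permutation p = 0.1 for each). In chr9_67687024_67773986 this share was 9.09% to 9.62% in input and 10.1% to 10.3% in Ψ-IP. In chr17_27269742_27371971 it was 7.41% to 7.81% and 8.86% to 9.31%.

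The cluster was richer in long loci than the sum of all other clusters and than 2 single clusters of high abundance. In the 6 libraries with neither CMC nor antibody selection (3 input and 3 mock), 71.7% to 73.2% of its counts were 29 to 31 nt long, against 57.8% to 67.5% of the counts of all other clusters summed. Without the 2 most abundant 5′ ends the share here was 71.6% to 72.5% in input and 65.7% to 67.9% in mock. Loci of 34 nt or more took 1.36% of the counts of this cluster in input and 0% in mock. The difference over all 5′ ends averaged 9.12 percentage points and was positive in 6 of 6 libraries (exact sign-flip p = 0.031, adjusted 0.0352, the smallest p that 6 libraries allow). Against chr17_27269742_27371971, the cluster with the largest share of counts, it averaged 27.9 percentage points, and against chr9_67687024_67773986 it averaged 8.08, both also in 6 of 6 libraries with the same exact p. Loci of 25 to 27 nt took 9.62% to 10.9% here and 13.6% to 20.3% in all other clusters, a difference of -6.57 percentage points (exact sign-flip p = 0.031, adjusted 0.0352). Without the 2 most abundant 5′ ends of this cluster they took 9.88% to 10.3% here in input and 14.8% to 15.6% in mock. The repeat share was higher than that of all other clusters by 7.18 percentage points and in 6 of 6 libraries (exact sign-flip p = 0.031), but ran from 0.967 to 13.5, with input averaging 1.06 and mock 13.3. Without the same 2 5′ ends the repeat share here was 15.1% to 15.7% in input and 12.4% to 12.6% in mock, against 13.6% to 15.2% over these libraries in all other clusters, so that the excess in both groups rested largely on those ends. Against chr9_67687024_67773986 it was higher in 3 of 6 libraries (exact sign-flip p = 0.344).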

How the data were processed

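Counts were analysed for 15 libraries of mouse testis small RNA in 5 groups, which were assigned from the labels. The authors clipped adaptors with Cutadapt, kept reads of 14 to 44 nt, set tRNA fragments aside, mapped the rest to mm10 with Bowtie 2 allowing up to 3 mismatches, and intersected them with repeats and piRNA clusters using BEDTools. The deposited values are raw read counts per genomic interval and strand, and how reads with several alignments were counted is not given in the sources used here. Intervals listed under 2 repeats were kept once. File starts count from 0 and are given here from 1. No use of molecular identifiers is stated, so reads cannot be taken as separate molecules. The sampling noise with which replicates are compared below covers counting error only, whereas the edgeR tests use the spread between libraries.

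Cluster intervals were taken from the names in the study's source data. Counts were summed per cluster, strand, 5-kb window (by 5′ end) and length, with an average of at least 100 counts, and single loci were tested where their total exceeded 20 counts. Each table was fitted whole with edgeR 4.0.16 in R 4.3.3 (TMM on library totals, quasi-likelihood test, Benjamini-Hochberg adjustment, called at an adjusted p under 0.01), and each comparison used its own 6 libraries. Alternatives were DESeq2 1.42.0, other scalings, count filters, loci of 24 to 33 nt, replicate number as a block, and leaving out each library. The fits were tested on simulated data. Shares were compared with two-sided exact permutation or sign-flip tests. Replicates differed by more than sampling noise (chi-square per degree of freedom of 3.47 to 17.2). Deviations of same-numbered CMC and mock libraries correlated at 0.134, 0.154 and 0.306 over 87698 loci, and those with different numbers at -0.352 to 0.235, so their number was treated as a possible pairing. The labels state no pairing.

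Named loci are the 5 most abundant on each strand and, per comparison, the 3 largest rises and falls among called loci averaging 100 counts or more with 1 direction in all 9 library pairs. Named windows and lengths are the largest called rise and fall and those with at least 10% of cluster counts. Windows 11, 9, 12, 17 and 18 and lengths of 27 and 28 nt were also named, some after their values were seen. The counts of loci that begin inside another locus, of starts around single 5′ ends and of uridines in called loci were added after the data were seen. The cluster, the members and the lists were chosen with earlier results of these data known.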

Additional observations from a re-analysis of the deposited data

How the results depend on the processing

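Minus-strand rises, the cluster rise over flow-through and the directions of the 25 to 27 nt and 29 to 31 nt shares within the cluster held under the alternatives run. The length classes called against input numbered 4 to 5 higher and 11 to 15 lower, and against flow-through 7 to 8 higher and 10 to 15 lower. Values that follow are log2 fold changes unless named. The plus strand passed the threshold against input by DESeq2 and with its size factors in edgeR (0.096 by both), with no minimum count (0.0912) and with the replicate block (0.0694), and against flow-through with DESeq2's size factors (0.1014) and no minimum count (0.1469). Leaving out single libraries gave 0.0719 to 0.0937 for the cluster and 0.0628 to 0.0848 for the plus strand against input, and -0.0396 to 0.0226 for the cluster in CMC, which was 0.0016 with loci of 24 to 33 nt and 0.0004 with no minimum count. The cause was not tested for any of these.

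Loci higher than input numbered 854 to 2055 and lower 1917 to 3239 with a library left out. DESeq2 gave 2046 lower, and a minimum average of 10 counts, which tests fewer loci, gave 1937 higher and 1999 lower. Loci lower than flow-through numbered 523 to 828 with a library left out and 1421 with library totals. Windows lower than flow-through numbered 1 to 2 with a library left out and 1 with a minimum average of 10 counts. For CMC, 1 window was higher and 2 lower by DESeq2, and 2 and 2 with the replicate block. A single window was lower with loci of 24 to 33 nt and with a minimum average of 10 counts (1 in both), and 0 to 1 with a library left out. Length classes higher after CMC numbered 1 by DESeq2 and 2 with the replicate block. Loci higher after CMC numbered 188 by DESeq2 and 175 to 273 with a library left out, and lower loci 329 with the replicate block and 86 to 301 with a library left out.

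With a library left out, the share in the 10 most abundant loci differed between Ψ-IP and input by -0.0562 to 0.4766 percentage points, and without the 2 most abundant 5′ ends by 2.206 (7.09% against 4.884%, without overlap). For CMC against mock the ranges were -0.1364 to 0.04372 for the share of all counts, -0.4903 to 0.1528 for repeats and -1.748 to 0.09438 for the 10 most abundant loci. Without the 2 most abundant 5′ ends, an alternative chosen after seeing the data, CMC and mock differed by 0.01189 in the share of all counts, -0.1461 in the plus-strand share and 1.332 in the repeat share. Against other clusters, input or mock alone (3 libraries, which allow no p below 0.25) gave 5.028 and 13.21 for 29 to 31 nt, -4.066 and -9.069 for 25 to 27 nt and 1.061 and 13.3 for repeats against all others. Against chr17_27269742_27371971 they gave 25.68 and 30.16, -20.35 and -23.74, and 5.159 and 18.08. Against chr9_67687024_67773986 they gave 3.374 and 12.79, and -3.321 and -7.859, and the repeat difference in input was -3.955.

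Among named loci, signs turned only where the locus was not called. Against input, chr12:98447235-98447265 had 0.037 by DESeq2, 0.0371 with its size factors, 0.1816 with library totals, 0.1636 with a minimum average of 10 counts, 0.0355 with the replicate block and -0.1894 to 0.3807 with a library left out. The 30-nt locus chr12:98447235-98447264 had -0.0972 to 0.222. Against flow-through with library totals these had -0.1757 and -0.0625 and chr12:98400622-98400653 had -0.2159. With a library left out the first had -0.1132 to 0.268 and the last -0.1614 to 0.1426. For CMC, chr12:98396934-98396962 had 0.043 with library totals, 0.0063 with a minimum average of 10 counts and -0.1158 to 0.0603 with a library left out. The loci from 98447235 to 98447263, 98447265 and 98447264 then had -0.0284 to 0.1608, -0.0097 to 0.1375 and -0.0653 to 0.1311.

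Same-numbered libraries of Ψ-IP and input correlated at 0.258, 0.308 and -0.0297, and of Ψ-IP and flow-through at 0.0922, 0.182 and -0.042, where the titles name input and flow-through by the number of an IP. Whether a number marks 1 immunoprecipitation is not stated, and the block changed the plus-strand call against input (adjusted p = 0.00236 by edgeR). The calls of named loci, windows and lengths were lost in 29 refits with a library left out and in 8 others. These were, against input, window 14, loci of 23, 30, 39 and 40 nt and chr12:98396934-98396962, and, against flow-through, windows 10 and 11 and loci of 19, 20, 26 and 43 nt. At this depth 30289 of 264362 loci, with 91.3% of the cluster counts, could be tested in Ψ-IP.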
